A study of Mus musculus with 4 samples.

Results

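Among the TCF1 peaks of mouse thymocytes, 1215 merged regions on chromosomes 1 to 19 held a peak in Sox13lo γδ cells and a peak in CD4 CD8 double-positive (DP) cells and none in Sox13hi γδ cells. Peaks that shared at least 1 bp were joined across the 3 lists, and the joined region was kept when it held a Sox13lo and a DP peak, held no Sox13hi peak and lay on an autosome. The regions made up 0.992 % of the 122489 merged regions on these chromosomes, and 129232 regions were found in the genome as a whole. They were 11.7 % (95 % Wilson interval 11.1 to 12.4) of the 10344 regions with a Sox13lo peak and 1.42 % (1.34 to 1.50) of the 85547 regions with a DP peak. The presence and absence of peaks chose the regions, so the shares, scores, widths and distances to Sox13hi peaks below are a description of the lists and carry no test.

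TCF1, the product of Tcf7, is a high mobility group box factor that binds the minor groove of DNA, bends it, and acts with β-catenin as an activator or with Groucho-type corepressors as a repressor. It is induced by Notch signals in early thymic progenitors, helps to open chromatin at T-lineage genes, and is needed for the survival of DP thymocytes. SOX13, another high mobility group box factor, can bind TCF1 and marks a set of immature γδ thymocytes that give rise to IL-17-producing γδ T cells.

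The γδ cells came from C57BL/6 mice of the genotype TCRbeta KO.Sox13 ECFP KI/+, which lack TCRβ and with it conventional αβ T cells, and in which 1 copy of Sox13 carries a cyan fluorescent reporter. CD24+ γδ thymocytes were sorted into cells with high reporter signal (Sox13hi) and cells with low or no signal (Sox13lo), so both γδ groups share the TCRβ deletion and the reporter allele, and the populations are defined by reporter signal and not by SOX13 protein. DP thymocytes were wild type C57BL/6 cells, which have neither allele, so cell type and genotype cannot be told apart between the γδ and DP lists. Each population had 1 TCF1 immunoprecipitation with the same antibody. No spread between replicates exists, no test between populations was possible, and the intervals below cover counting error only, since neighbouring regions of 1 library are not independent. Age, sex and pooling of animals are not given in the labels, and the antibody-free input was left out.

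The lists differed in length and in the scale of their scores, which touches every count of presence and absence and every comparison of rank percents between lists. The DP list had 90956 peaks, the Sox13hi list 41720 and the Sox13lo list 10871, and read depth is unknown. A score, the authors' own value per peak, is used here for its rank within a list, with 0 % standing for the best-scored peak and 100 % for the lowest. A region without a Sox13hi peak may hold TCF1 signal below the lowest score of the Sox13hi list.

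Most regions that Sox13lo cells shared with DP cells were also in the Sox13hi list. Of the 5171 autosomal regions with a Sox13lo and a DP peak, 3956 also held a Sox13hi peak, and the 1215 without one were 23.5 % (22.4 to 24.7). The 1215 regions held 1219 Sox13lo and 1225 DP peaks and covered 517 kb. Almost all of them, 1202, were formed by a single peak of each list.

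The regions without a Sox13hi peak ranked near the middle of the Sox13lo list and higher in the DP list, each taken relative to its own length. Their Sox13lo scores ran from 5.93 to 745 with a median of 31.9, and the median rank was 55.5 % of the Sox13lo list (quartiles 32.9 and 74.5 %). Their DP scores ran from 3.01 to 1837 with a median of 48.1, and the median rank was 14.3 % of the DP list (3.42 and 49.5 %). A typical region of this kind thus stood slightly below the middle of the Sox13lo list and near the top of the DP list. In regions of all 3 lists the median ranks were 25.1 % in Sox13lo and 8.22 % in DP cells. In the 2924 regions of the Sox13lo list alone the median Sox13lo rank was 76.2 %, and in the 78760 regions of the DP list alone the median DP rank was 51.6 %. The regions without a Sox13hi peak therefore lay between the common and the single-list regions in both lists. Their Sox13lo position was not particular to them, since regions of both γδ lists without DP had a median Sox13lo rank of 54.5 %. Regions of Sox13hi and DP without Sox13lo had a median DP rank of 57.5 %, lower in the list than DP-only regions.

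Many of the regions had a DP peak among the best-scored 10 % of its list, and few had such a Sox13lo peak. The best-scored 10 % is a larger set in the DP list (90956 peaks) than in the Sox13lo list (10871), so the 2 shares are not on one scale. In 521 regions, or 42.9 % (40.1 to 45.7), the DP peak was among the best-scored 10 % of its list, against 53.5 % (51.9 to 55.0) of regions in all 3 lists. The Sox13lo peak was among the best-scored 10 % in 53 regions, or 4.36 % (3.35 to 5.66), against 22.8 % (21.5 to 24.1). Of the 679 regions with a Sox13lo peak in the lower-scored 50 %, 180 had a DP peak in the best-scored 10 %, which is 26.5 % (23.3 to 30.0), against 24.4 % (21.5 to 27.6) of 778 such regions in all 3 lists. Both peaks were in the best-scored 10 % in 42 regions and both in the lower-scored 50 % in 235. Scores of the 2 lists rose together across the 1215 regions (Spearman rho 0.48) about as in the 3956 common regions (0.50). Both values are across regions that share the same pair of libraries, and score followed peak width within each list (rho 0.70 for Sox13lo and 0.80 for DP).

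**Figure D1:**
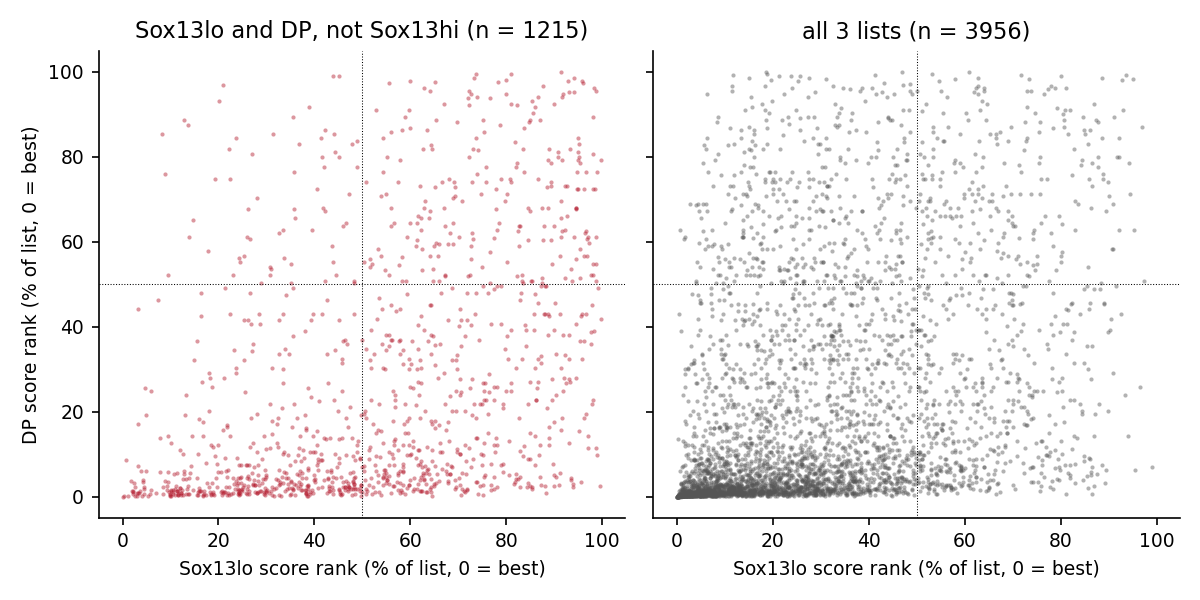
Rank of the Sox13lo score (x axis, % of the Sox13lo list) against rank of the DP score (y axis, % of the DP list), with 0 as the best; each point is 1 merged region, on the left the 1215 regions without a Sox13hi peak and on the right the 3956 regions of all 3 lists. On the left the points spread along the lower edge over the whole Sox13lo range (median ranks 55.5 % and 14.3 %), and on the right they crowd into the lower left corner (25.1 % and 8.22 %).

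The share of Sox13lo and DP regions that lacked a Sox13hi peak followed the Sox13lo score closely and the DP score only slightly. Among regions whose Sox13lo peak was in the best-scored 10 % of the list, 53 of 955 lacked a Sox13hi peak, or 5.55 % (4.27 to 7.19). The share was higher in each further step of 10 % and reached 80.3 % (73.0 to 86.0), or 114 of 142, in the lowest-scored 10 %. Ranked by the DP score, the corresponding shares were 19.8 % (18.3 to 21.3) of 2637 regions and 31.9 % (24.7 to 40.1) of 138 regions.

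With the Sox13lo score held within a step of 20 % of its list, the intervals for the best-scored and the lowest-scored 20 % of DP peaks overlapped. Among regions in the best-scored 20 % of both lists, 8.45 % (7.13 to 9.99) of 1455 lacked a Sox13hi peak, and with a DP peak in the lowest-scored 20 % it was 7.14 % (2.46 to 19.01) of 42. In the lowest-scored 20 % of the Sox13lo list the shares were 60.4 % (50.2 to 69.9) of 91 regions with the best-scored DP peaks and 56.2 % (44.1 to 67.7) of 64 regions with the lowest-scored ones. In the same comparison at Sox13lo ranks of 20 to 40 % they were 21.2 % (18.7 to 24.0) of 896 and 15.5 % (8.38 to 26.9) of 58, and at 40 to 60 % they were 34.1 % (30.1 to 38.3) of 516 and 27.1 % (18.1 to 38.5) of 70. At 60 to 80 % they were 49.8 % (43.6 to 56.0) of 243 and 39.4 % (28.9 to 51.1) of 71. In each of the 5 steps the share was nominally higher with the best-scored DP peaks, the reverse of the rise along the DP score alone. Some DP steps between the extremes had intervals wholly below that of the best-scored DP peaks. At Sox13lo ranks of 20 to 40 %, DP ranks of 20 to 40 % gave 10.9 % (7.23 to 16.1) of 193. At Sox13lo ranks of 40 to 60 %, DP ranks of 60 to 80 % gave 19.6 % (13.1 to 28.4) of 102. In the lowest-scored 20 % of the Sox13lo list, DP ranks of 60 to 80 % gave a higher share, 69.7 % (58.7 to 78.9) of 76.

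**Figure D2:**
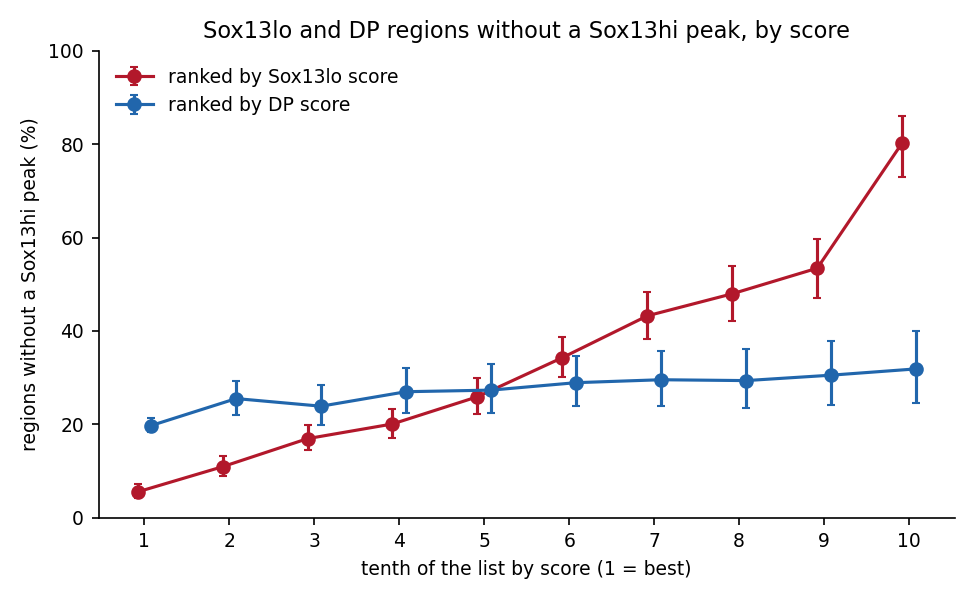
Share of autosomal regions with a Sox13lo and a DP peak that held no Sox13hi peak (y axis, %), in steps of 10 % of the list by score (x axis, 1 is the best-scored step); bars are 95 % Wilson intervals. The share climbs from 5.55 % to 80.3 % along the Sox13lo score and from 19.8 % to 31.9 % along the DP score.

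Where a Sox13hi peak was present, it mostly ranked well in its list, and less well at weak Sox13lo peaks. In the 3956 common regions the median rank of the Sox13hi peak was 6.86 % of its list, and 251 of them, or 6.34 % (5.63 to 7.15), had a Sox13hi peak in the lower-scored 50 %. The median Sox13hi rank was 3.62 % in common regions of the best-scored 20 % of the Sox13lo list and 22.1 % in those of the lowest-scored 20 %. The share of Sox13hi peaks in the lower-scored 50 % was 2.59 % in the first set and 20.6 %, or 28 of 136, in the last, where 5 were in the lowest-scored 10 %. At equal Sox13lo rank, the DP peaks of regions without a Sox13hi peak ranked at least as well in 4 of the 5 steps of 20 %. At Sox13lo ranks of 20 to 40 % the median DP rank was 5.05 % in the 256 regions without a Sox13hi peak and 9.46 % in the 1136 with one, and at 40 to 60 % it was 11.3 % and 19.4 %. In the lowest-scored 20 % the order was the other way, with 48.5 % and 45.3 %.

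Named by the best mean of both ranks, the 10 leading regions lay on 7 chromosomes, and all positions below are on mm9, 1-based with both ends included. The first, on chromosome 9 at 3020201 to 3020700, scored 745 in Sox13lo cells (rank 18) and 1837 in DP cells (rank 7). It was the only region of the 1215 with a score over 20 times the median of a list, and the nearest Sox13hi peak was 174.9 kb away. Sequence on mm9 was not used here, so neither this region nor the others were checked for repeats. The next, on chromosome 16 at 31162601 to 31163350, was a stretch where both lists called the same 750 bp, with scores of 275 in Sox13lo (rank 35) and 286 in DP cells (rank 83). Its nearest Sox13hi peak was 41.8 kb away. Neither region had a Sox13hi call in its neighbourhood of 10 kb.

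The chromosome 17 region at 32533301 to 32533800 scored 178 in Sox13lo and 322 in DP cells, and a Sox13hi peak of 150 bp lay 3.7 kb before it. On chromosome 4 the region at 107356001 to 107356650 scored 137 in Sox13lo and 264 in DP cells, and the nearest Sox13hi peak, 118.2 kb away, stood at rank 96.8 % of its list. Chromosome 7 held 3 of the 10. The region at 128389151 to 128389650 scored 146 in Sox13lo and 158 in DP cells, and that at 25370651 to 25371300 scored 129 and 261. The chromosome 7 region at 4945601 to 4946550 scored 130 in Sox13lo and 138 in DP cells, and a Sox13hi peak of 200 bp at rank 17.0 % ended 350 bp before it. The last region is therefore beside a well-scored Sox13hi site, unlike the chromosome 4 region.

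The remaining 3 of the 10 had Sox13lo peaks of 750 to 1950 bp. On chromosome 17 the region at 74434001 to 74436000, the widest of all 1215, was made of a Sox13lo peak of 1950 bp (score 148) and 2 DP peaks (best score 123). The region on chromosome 11 at 96999951 to 97000700 scored 149 in Sox13lo and 120 in DP cells, with a Sox13hi peak of rank 8.88 % at 11.55 kb. The region on chromosome 10 at 80616201 to 80617200 scored 147 and 118, with a Sox13hi peak of rank 4.40 % at 5.1 kb. Of the 10 leading regions, 4 lay within 10 kb of a Sox13hi peak, so a strong shared call in Sox13lo and DP cells was found both near and far from Sox13hi sites. Across all 1215 regions the Spearman rho of that distance with the score was 0.03 for Sox13lo and 0.04 for DP.

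The regions were 400 bp wide in the middle of their range (quartiles 300 and 500 bp), from 150 to 2000 bp. Regions of both γδ lists without DP had a median of 350 bp, and those of Sox13hi and DP without Sox13lo 250 bp. Regions of all 3 lists had a median of 550 bp and those of a single list medians of 250 bp (Sox13lo) and 200 bp (DP). A merged region widens with each list it holds. The single peaks differed in the same order. The Sox13lo peak had a median of 300 bp, against 500 bp in regions of all 3 lists and 250 bp in regions of Sox13lo alone. The DP peak had a median of 300 bp, against 400 bp in all 3 lists and 200 bp in DP alone. At equal Sox13lo rank the gap narrowed toward weak peaks. Median Sox13lo widths without and with a Sox13hi peak were 500 and 650 bp in the best-scored 20 %, and both were 250 bp in the lowest-scored 20 %.

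Besides the chromosome 17 region, the widest were on chromosome 12 at 3806251 to 3807500 and on chromosome 11 at 17365551 to 17366700. The chromosome 12 region was 1250 bp wide in Sox13lo cells (score 74.8) and held a DP peak of 300 bp with a score of 20.04. Its nearest Sox13hi peak was 123 kb away. The chromosome 11 region was 1150 bp wide in Sox13lo cells (score 84.1), its DP peak of 700 bp had a score of 163, and a Sox13hi peak of 100 bp lay 850 bp after it. In both, the Sox13lo call was the wider one.

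**Figure D3:**
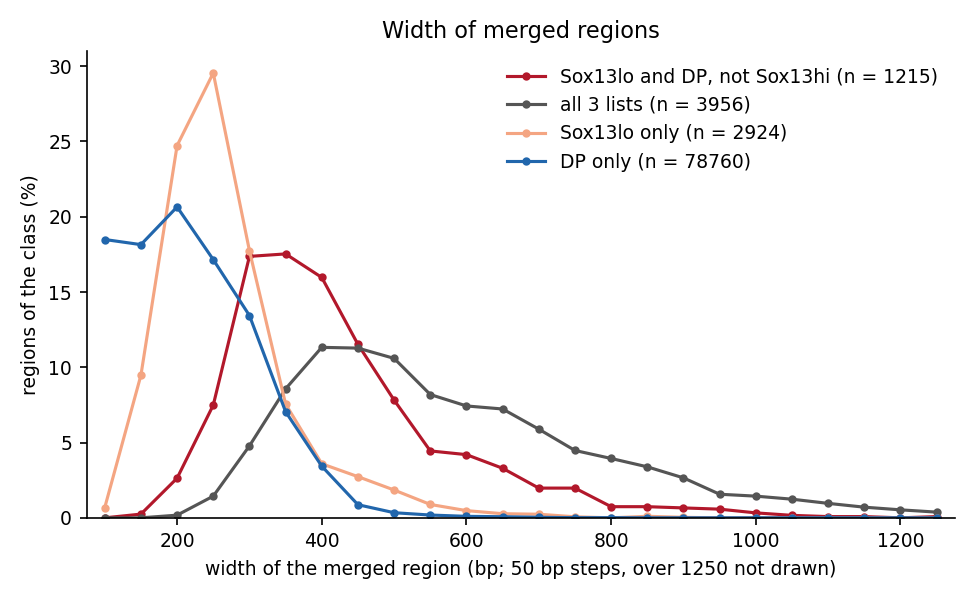
Width of merged autosomal regions (x axis, bp) against the share of regions of each class (y axis, %), for 4 classes by the lists that hold a peak. Regions of Sox13lo and DP without Sox13hi (median 400 bp) lie between single-list regions (250 and 200 bp) and regions of all 3 lists (550 bp).

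The Sox13lo and DP peaks of a region were closely superposed. In the 1202 regions with 1 peak of each list the median overlap was 250 bp (quartiles 200 and 300 bp), and the midpoints lay within 100 bp of each other in 85.4 % (83.3 to 87.3). In regions of all 3 lists with 1 peak each of Sox13lo and DP, midpoints were within 100 bp in 79.9 % (78.6 to 81.1), where peaks were wider. The DP peak lay inside the Sox13lo peak in 416 regions, the Sox13lo peak inside the DP peak in 384, and in 70 both had the same start and end. In the other 332 each reached past the other. An overlap of a single 50 bp step, the smallest that the grid of positions allows, was seen in 28 regions, or 2.33 % (1.62 to 3.35), so few regions depended on the minimum overlap.

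Most regions lay more than 10 kb from any Sox13hi peak, as did most regions of the Sox13lo or the DP list alone, and a minority lay beside one. The median distance, edge to edge, was 19250 bp (quartiles 5825 and 41925 bp). This value depends on the length of the Sox13hi list, and with the lists limited to equal length it was 59850 bp. Of the 1215 regions, 36, or 2.96 % (2.15 to 4.07), were within 200 bp of a Sox13hi peak, 120, or 9.88 % (8.32 to 11.7), within 1 kb, 423, or 34.8 % (32.2 to 37.5), within 10 kb and 1147 within 100 kb. Regions of the Sox13lo list alone had nearly the same distances, with 11.5 % (10.4 to 12.7) within 1 kb, 35.3 % (33.5 to 37.0) within 10 kb and a median of 18525 bp. For regions of the DP list alone the values were 3.59 % (3.46 to 3.72) within 1 kb, 28.4 % (28.1 to 28.7) within 10 kb and a median of 21300 bp. Within 100 kb the shares of the 3 classes were 94.4, 95.4 and 94.8 %.

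**Figure D4:**
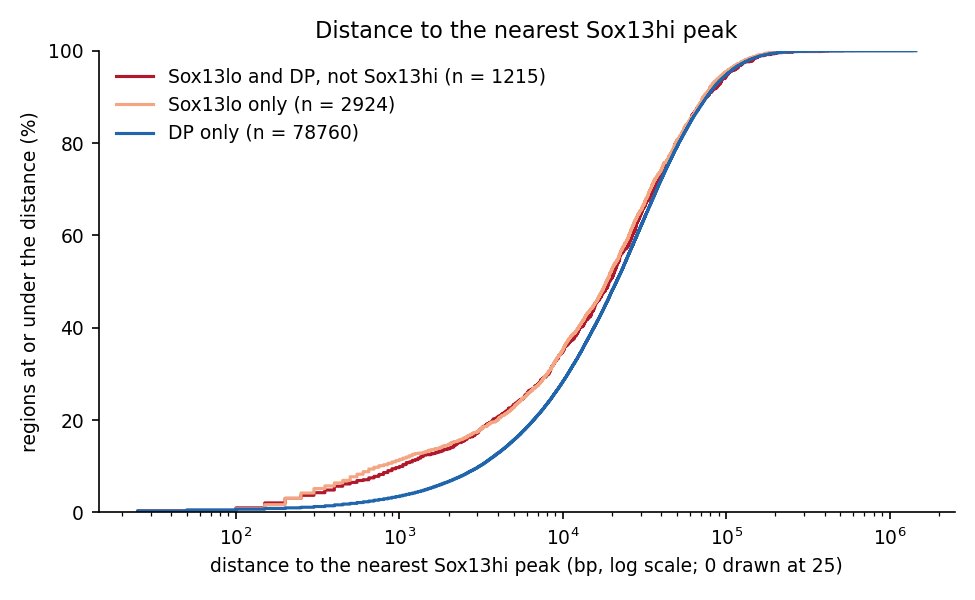
Share of regions (y axis, %) at or under a given distance to the nearest Sox13hi peak (x axis, bp, log scale), for regions of Sox13lo and DP without Sox13hi, of Sox13lo only and of DP only. Both classes with a Sox13lo peak run together and lie above the DP-only class at short range (9.88 and 11.5 % against 3.59 % within 1 kb).

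The Sox13hi peaks next to the 120 close regions were mostly sites of Sox13lo cells as well. Of these neighbours, 50, or 41.7 % (33.2 to 50.6), belonged to a region of all 3 lists and 47, or 39.2 % (30.9 to 48.1), to a region of both γδ lists without DP. Sox13hi-only regions held 23, or 19.2 % (13.1 to 27.1). None was in a region of Sox13hi and DP without Sox13lo, and 0 of 120 allows a share of up to 2.5 % when 3 counts are taken as the limit of a count of 0 (upper Wilson limit 3.10 %). Among all Sox13hi peaks on the autosomes the shares in the same order were 11.1, 5.79, 79.1 and 4.03 %. The neighbours of close regions had a median rank of 15.1 % of the Sox13hi list and a median width of 200 bp, against 43.7 % and 150 bp for the nearest Sox13hi peaks of the 1095 other regions. The close regions ranked somewhat lower in both lists, with medians of 60.0 % in Sox13lo and 22.8 % in DP cells, against 54.9 and 13.7 %.

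At the boundary of the rule, 3 regions touched a Sox13hi peak with no base between them. On chromosome 11, at 97141301 to 97141950 (scores of 36.6 in Sox13lo and 80.5 in DP cells), a Sox13hi peak of 100 bp began at the next base. On chromosome 4, at 149655901 to 149656200 (25.7 and 20.9), a Sox13hi peak of 250 bp at rank 15.7 % ended at the base before. On chromosome 7, at 71082401 to 71082750 (12.8 and 12.0), a Sox13hi peak of 250 bp at rank 8.34 % did the same. A further 33 regions were 50 to 200 bp away. These regions were counted as lacking a Sox13hi peak although one lay directly beside them.

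Just outside the rule were 2 regions of all 3 lists with the least Sox13hi overlap. On chromosome 10, at 93296251 to 93297100, and on chromosome 4, at 129054551 to 129055050, a Sox13hi peak covered 50 bp of the other peaks. The chromosome 10 region had ranks of 27.4 % in Sox13lo, 94.1 % in DP and 62.5 % in Sox13hi cells, and the chromosome 4 region 77.4, 96.0 and 51.1 %. On chromosome 19, at 47327451 to 47328350, scores were 223 in Sox13lo and 203 in DP cells, and a Sox13hi peak of 100 bp at rank 64.0 % was enough to place the region among the common ones. By its scores the last region would have stood behind the best 2 of the 1215.

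The 3 regions farthest from a Sox13hi peak were weak in Sox13lo cells. This does not extend to far regions in general, since across all 1215 the Spearman rho of distance with Sox13lo score was 0.03. On chromosome 12, at 23786951 to 23787550, the nearest Sox13hi peak was 514 kb away, the Sox13lo score was 16.1 (rank 83.0 %) and the DP score 53.3 (rank 10.8 %). On chromosome 4, at 127665201 to 127665550, it was 419 kb away, with ranks of 91.4 % in Sox13lo and 69.7 % in DP cells. On chromosome 16, at 3115701 to 3116050, it was 388 kb away, with ranks of 83.5 and 81.8 %. In all 3 the Sox13lo peak was in the lowest-scored 20 % of its list.

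Most regions had another region with a DP peak within 10 kb, and few had another of the same kind there. The 2 sets differ in size, with 85547 and 1215 regions, so the 2 shares are not on one scale. Another region with a DP peak was within 10 kb of 753, or 62.0 % (59.2 to 64.7). This compares with 57.6 % (56.0 to 59.1) of regions in all 3 lists and 59.1 % (57.3 to 60.8) of Sox13lo-only regions. Of the 1215, 348, or 28.6 % (26.2 to 31.2), lay within 10 kb of another region with a Sox13lo peak, against 26.0 % (24.6 to 27.3) of regions in all 3 lists and 29.5 % (27.9 to 31.2) of Sox13lo-only regions. A region of all 3 lists was within 10 kb of 145, or 11.9 % (10.2 to 13.9), compared with 13.3 % (12.1 to 14.5) of Sox13lo-only and 3.25 % (3.13 to 3.38) of DP-only regions. Another region of the same kind was within 10 kb of 64, or 5.27 % (4.15 to 6.67). A region of this kind was as near to 4.27 % (3.68 to 4.95) of regions in all 3 lists. The share was 4.04 % (3.38 to 4.81) for Sox13lo-only and 1.09 % (1.02 to 1.17) for DP-only regions. The 64 regions formed 29 pairs and 2 groups of 3. Those groups were chosen for their size after the positions were seen.

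The group on chromosome 6 spanned 7300 bp from 52118601 to 52125900. Its regions had scores of 50.3, 32.6 and 36.6 in Sox13lo cells and 115, 11.02 and 66.1 in DP cells, and Sox13hi peaks were 3400 to 10250 bp away. The group on chromosome 7 spanned 9900 bp from 53040901 to 53050800, with scores of 29.4, 18.1 and 49.1 in Sox13lo cells and 34.7, 59.8 and 45.6 in DP cells. Its nearest Sox13hi peak was 2850 bp away. DP ranks ran from 1.36 to 84.5 % in the chromosome 6 group and from 7.72 to 32.5 % in the chromosome 7 group, so the first mixed strong and weak DP peaks.

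The regions were spread unevenly over the autosomes. Their density was 0.491 per Mb on the autosomes as a whole, highest on chromosome 11 (101 regions, 1.69 times that value) and lowest on chromosomes 14 (39 regions, 0.634 times) and 3 (50 regions, 0.637 times). Chromosomes 19 and 7 had 1.39 and 1.37 times the autosomal density. Over the 19 autosomes, which differ in base composition and gene content and share the same libraries, the relative density went with that of regions in all 3 lists (Pearson r 0.91, Spearman rho 0.92) and of Sox13lo-only regions (0.81 and 0.89). With DP-only regions r was -0.10 and rho -0.12. The relative density of DP-only regions hardly varied, from 0.932 on chromosome 7 to 1.04 on chromosome 11, so these 2 values say little.

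The share of Sox13lo and DP regions without a Sox13hi peak was even across chromosomes. It ran from 20.1 % (15.4 to 25.8) on chromosome 17 to 27.2 % (22.9 to 31.9) on chromosome 7, and on all 19 autosomes the interval held the value over all of them, 23.5 %. No autosome stood apart beyond counting error. Genes near the regions, the share at promoters and DNA motifs were not analysed here, because gene positions and sequence on mm9 were not used.

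**Figure D5:**
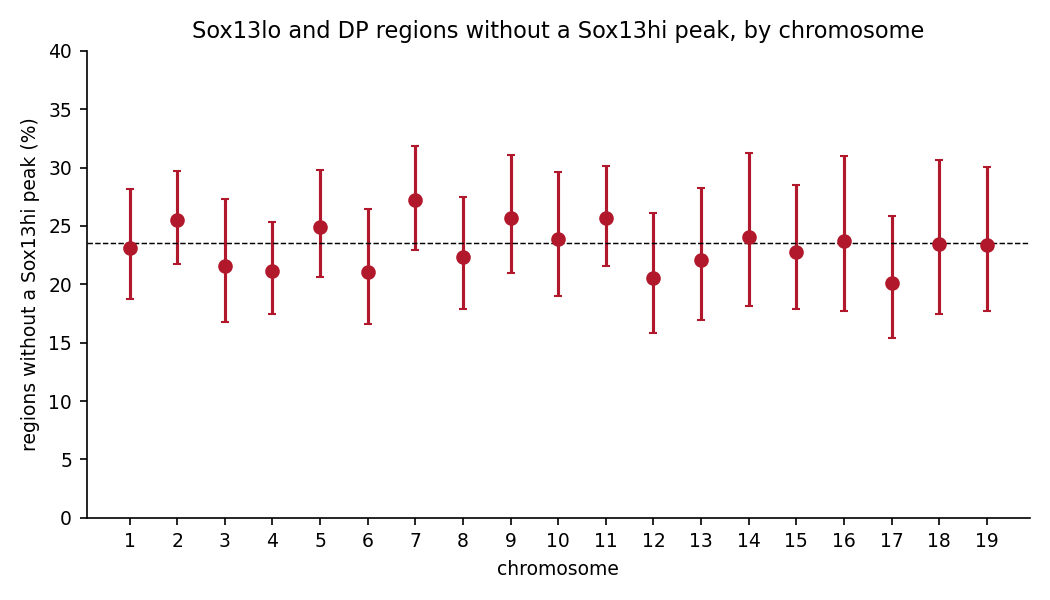
Share of regions with a Sox13lo and a DP peak that held no Sox13hi peak (y axis, %) on each autosome (x axis); bars are 95 % Wilson intervals and the dashed line is the value over all autosomes, 23.5 %. Every interval crosses the line.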

How the data were processed

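The authors deposited 1 peak list per immunoprecipitation, without a header, with a score per peak. The genome build is mm9, per the submitters' processing notes. Which aligner and caller were used, at what threshold, and whether the input served as control is not given in the sources used here. All positions were multiples of 50 bp when ends were read as the last base, counted from 0. Scores were only ranked within a list.

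Peaks were merged in Python 3.11.15 with pandas 2.3.3, numpy 2.4.6 and scipy 1.17.1. bedtools 2.31.1 gave the same 1215 regions. The steps were checked on simulated lists. Distances count the bases between edges. A region takes its best-scored peak of each list. Intervals are 95 % Wilson intervals. mm9 chromosome lengths were those of GenomeInfoDb 1.38.1, and figures were made in matplotlib 3.10.9.

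Regions named are the 10 best by mean rank, and the 3 widest, nearest and farthest. Named too are 3 regions of all 3 lists with few bases of Sox13hi overlap (50 or 100 bp). The regions and lists were chosen with earlier results of these data known. The gene table given is on another genome build, so the planned promoter, motif and gene results were left out, and no sequence is printed.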

Additional observations from a re-analysis of the deposited data

How the results depend on the processing

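Of 34 alternative values of the number of regions, their median width, their median distance to a Sox13hi peak and the share of Sox13lo and DP regions without a Sox13hi peak, 20 stayed close to the reported value and 14 moved. In that order, the better-scored 50 % of each list gave 597 regions, 450 bp, 33850 bp and 18.6 %, and lists of equal length (10871 peaks) gave 803, 450 bp, 59850 bp and 28.8 %. Both settings shorten the Sox13hi list, so distances grow by construction. With the better-scored 50 % of the Sox13hi list alone the distance was 31725 bp and the share 28.4 %, and the number of regions rose to 1466. Without regions within 500 bp of a Sox13hi peak, 1137 regions were left, with 21300 bp and 22.0 %. The overlap of both peaks was 250 bp wide, and Sox13lo peaks counted one by one were 300 bp wide. A reciprocal overlap of 50 % left 1007 regions, at 400 bp, 18850 bp and 24.2 %. The share within 1 kb of a Sox13hi peak, 9.88 %, moved in 3 of 8 alternatives, to 3.69 % without regions within 500 bp of a Sox13hi peak (lower by construction), 7.10 % with equal lengths and 11.7 % with single Sox13lo peaks. The settings for the shares, the Sox13hi list alone, single peaks and all chromosomes were chosen after seeing the data. No paired analysis was possible because there was a single library per population. Since depth is unknown, no detection limit could be set for the Sox13hi list. Other settings for promoters, motifs and genes were not run.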

Other observations

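Outside the autosomes, 104 regions of the same kind lay on the X chromosome and 0 on the Y chromosome. On X they were 51.2 % (95 % Wilson interval 44.4 to 58.0) of the 203 regions with a Sox13lo and a DP peak, above the range of 20.1 to 27.2 % of the autosomes. Their median ranks were 59.2 % (Sox13lo) and 3.98 % (DP), and their median distance to a Sox13hi peak was 46125 bp. The best of them by mean rank were at 166435301 to 166436100, with scores of 237 in Sox13lo and 1418 in DP cells, and at 166434801 to 166435200, with scores of 221 and 663. Sex is not among the labels, and the difference was not tested.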
